A study of Mus musculus with 18 samples.

Results

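The comparison described here asks whether loss of Kmt2c changed the same genes in 2 mouse mammary tumour lines, 168FARN and 67NR, or changed genes in 1 line alone or in opposite directions. It used 12 of the 18 RNA-seq libraries of the series: 3 of 168FARN WT, 3 of 168FARN Kmt2c KO, 3 of 67NR WT and 3 of 67NR Kmt2c KO. The libraries were chosen by line and genotype, and no measured value entered the choice. The remaining 6 libraries, of Kmt2d KO cells, helped to estimate the spread between replicates and entered no comparison. Of these, 67NR Kmt2d KO replicate 3 had 28.81% of its counts in the transcript Rn45s. The 12 libraries compared had between 0.4595% and 4.971% there. Counts of genes from a fit of the 12 libraries alone are given at the end. For each gene, the KO effect in a line is its log2 fold change of Kmt2c KO over WT, and the difference between lines is the effect in 67NR minus the effect in 168FARN.

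Both are established mouse mammary tumour lines that the study describes as non-metastatic, and all groups were grown in the same medium with serum. The KO groups are pools and not clones, and by the study's sequencing of the target both kept unedited Kmt2c reads, a larger share of them in 67NR. How far this moves the difference between lines was not tested. Cells were transfected with 3 guide RNAs against Kmt2c and with Cas9 and were sorted for both fluorescent reporters. The columns of 168FARN name a control guide RNA for its WT and those of 67NR name only WT, and a part of the difference that comes with this cannot be told apart. No treatment, animal or tumour entered these groups.

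Kmt2c encodes a histone methyltransferase of the COMPASS family that places monomethylation on lysine 4 of histone H3, mainly at enhancers, and acts in a complex with the demethylase Kdm6a. Enhancers differ between cell types, so loss of an enhancer enzyme can meet a different set of active genes in each line. Epithelial cells hold together through E-cadherin, claudins and desmosomes, whereas mesenchymal cells express vimentin, fibrillar matrix and the repressors Zeb1, Zeb2, Snai2 and Twist2. Interferon-stimulated genes encode antiviral and antigen presentation proteins that many tumour cells keep at a low level without infection.

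The guides are shown because both lines were edited with the same set. Each is written from its 5′ end with the 3 bases of the mm9 genome that follow it, the PAM that Cas9 needs, in capitals.
sg1: tctttgcgaggccggccccgAGG
sg2: ggtgactaggatgtcgtcggAGG
sg3: ggggaagcgccatctttgcgAGG
All 3 guides matched exon 1 of Kmt2c on chromosome 5 in mm9. They lie at chr5:25004241-25004260 on the plus strand, chr5:25004359-25004378 on the minus strand and chr5:25004229-25004248 on the plus strand. Guides sg1 and sg3 overlap each other and fall wholly within coding sequence in 4 of the 6 annotated transcripts with this exon, and sg2 overlaps the untranslated region in 5 of the 6.

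The 12 libraries held between 28282313 and 78955350 counts. Replicate 3 stood apart from replicates 1 and 2 in every group, so counts of genes are also given with the replicate number as a block within each line and with replicates 1 and 2 alone. Values per library are CPM, counts scaled to a common library total by TMM factors, in the order of replicates 1, 2 and 3. They are not divided by gene length and serve to compare a gene between libraries, not with another gene. The mRNA of the targeted gene does not check these labels, since the guides cut its first exon and need not lower its mRNA. Kmt2c was at 117, 108 and 45.5 CPM in 168FARN WT and at 98.5, 91.8 and 48 CPM in its KO, and at 58.1, 64.7 and 55.7 CPM in 67NR WT and 85.4, 92.2 and 82.9 CPM in its KO. The groups overlapped in 168FARN and the KO libraries were the higher ones in 67NR, with no called effect in either line. Its difference of 0.73 ± 0.52 was not called (edgeR adjusted p = 0.46), and with the block it was 0.68 and called (0.0055). Kdm6a, its partner in the complex, was not called in either line (difference 0.59 ± 0.30, edgeR adjusted p = 0.25).

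The 2 lines answered loss of Kmt2c to very different extents. Throughout, a gene is called when edgeR's quasi-likelihood test gave a Benjamini-Hochberg adjusted p under 0.1 over all 13882 genes tested and an absolute log2 value over 0.6. In 67NR, 1995 genes rose (14.4% of those tested) and 2345 fell (16.9%). In 168FARN, 65 rose (0.468%) and 65 fell (0.468%). The difference itself was called for 1178 genes as higher in 67NR (8.49%) and for 1048 as lower (7.55%). With the replicate block, which removes the offset of replicate 3, the difference was called for 34.6% of genes, the 67NR effect for 41.9% and the 168FARN effect for 6.17%. The 3 KO libraries did not overlap the 3 WT libraries for 46.88% of genes in 67NR and for 10.5% in 168FARN.

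Genes with a called difference were sorted by where their own effect was called. A change in 67NR alone was found for 1966 genes, of which 1068 rose and 898 fell. A change in 168FARN alone was found for 16. Another 48 genes changed in opposite directions, 20 changed in the same direction by unequal amounts, and 176 differed between lines without a called effect in either. A further 40 genes changed in both lines in the same direction, 16 rising and 24 falling, without a called difference. With the replicate block these numbers were 3509 for 67NR alone, 137 for 168FARN alone, 258 for opposite directions, 156 for unequal changes and 201 for shared changes, and with replicates 1 and 2 alone the first 3 were 3300, 427 and 422. All 48 opposite genes stayed in that class with the block, while 9 of the 16 genes of 168FARN alone stayed in theirs. Without the block, leaving out a single library gave between 18 (without 168FARN KO replicate 2) and 53 opposite genes and between 3 (without 168FARN WT or KO replicate 2) and 34 (without 168FARN KO replicate 3) genes of 168FARN alone.

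**Figure D1:**
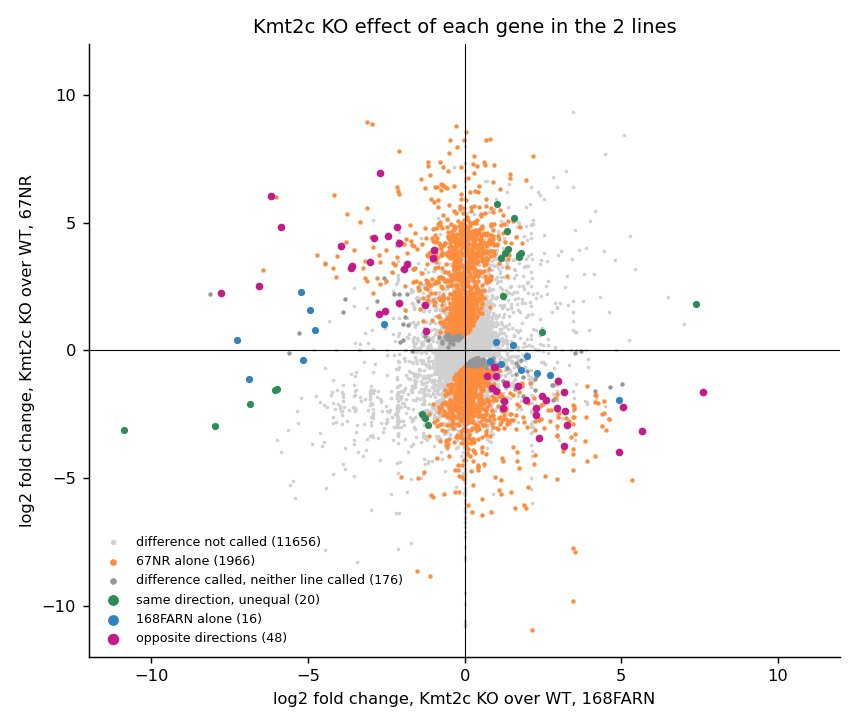
Log2 fold change of Kmt2c KO over WT in 168FARN (horizontal) and in 67NR (vertical) for each of the 13882 genes tested, coloured by class. The 1966 genes of 67NR alone spread along the vertical axis, and the 48 opposite genes lie in the upper left and lower right corners.

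The plot of both effects shows that most points leave the centre along the 67NR axis. The median absolute log2 fold change was 0.527 in 67NR and 0.215 in 168FARN. The spread between replicates was larger in 168FARN, with a biological coefficient of variation of 42% against 32.6% in 67NR without the block and 13.1% against 17.4% with it. The count of called genes was lower in 168FARN with and without the block. Libraries held 28282313 to 43276979 counts in 168FARN and 40815409 to 78955350 in 67NR. How far spread or depth sets the counts of called genes was not tested.

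Of the 48 opposite genes, 26 rose in 168FARN and fell in 67NR, and 25 of these 26 started lower in 168FARN WT than in 67NR WT. Their median level was 1.13 CPM in 168FARN WT, 7.01 in its KO, 35.5 in 67NR WT and 7.22 in its KO. They came from 12 chromosomes. In all 26 the WT and KO libraries did not overlap in either line, against 46.88% of all genes in 67NR and 10.5% in 168FARN. The same libraries gave the calls in both lines, so the lack of overlap is no separate support. In 4 of the 26 both groups of 168FARN lay under 1 CPM, so that the rise there is from a very low level.

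Fmnl1 (chr11:103032421-103060215), a formin that builds actin filaments, was at 0.718, 1.77 and 0.946 CPM in 168FARN WT and at 9.04, 10.2 and 7.63 CPM in its KO, and at 50.4, 41.8 and 56.8 CPM in 67NR WT and 13.3, 9.4 and 8.24 CPM in its KO. The KO libraries of both lines met at about the same level from opposite sides. The effects were 2.96 ± 0.30 in 168FARN and -2.27 ± 0.28 in 67NR, with a difference of -5.23 ± 0.41 (edgeR adjusted p = 5.8e-07). Cerk (chr15:85969558-86016571), ceramide kinase, was at 1.4, 1.1 and 0.639 CPM in 168FARN WT and at 12.4, 10 and 6.1 CPM in its KO, and at 11.4, 10.7 and 8.82 CPM in 67NR WT and 2.39, 2.17 and 1.46 CPM in its KO. Here the levels of the lines changed places, with KO of 168FARN near WT of 67NR and KO of 67NR near WT of 168FARN. The difference was -5.55 ± 0.56 (edgeR adjusted p = 7.5e-06). B3glct (chr5:150480805-150565174), a glucosyltransferase that modifies thrombospondin repeats, was at 0.103, 0.244 and 0.071 CPM in 168FARN WT and at 1.06, 1.17 and 1.09 CPM in its KO, and at 36.7, 40.6 and 35.3 CPM in 67NR WT and 15.7, 15.9 and 17.7 CPM in its KO. Its opposite effects left the lines far apart, with a difference of -4.19 ± 0.41 (edgeR adjusted p = 4.6e-06).

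Cd38 and Bst1, neighbouring genes for enzymes that split NAD, moved alike. Cd38 (chr5:44260048-44303614) was at 0.137, 0.0306 and 0.0237 CPM in 168FARN WT and at 0.53, 0.534 and 0.601 CPM in its KO, and at 52, 50.6 and 29.8 CPM in 67NR WT and 4.02, 2.95 and 2.89 CPM in its KO. The groups did not overlap in either line, although 168FARN stayed under 1 CPM throughout. The difference was -6.92 ± 0.60 (edgeR adjusted p = 1.7e-06). Bst1 (chr5:44210125-44234510), named after its values were seen because it adjoins Cd38, had means of 0.0713 CPM in 168FARN WT, 2.15 in its KO, 34.1 in 67NR WT and 2.16 in its KO. The other 21 genes of this group, beside Fmnl1, Cerk, B3glct, Cd38 and Bst1, were Fam149a, Crtap, Sp100, Arhgap6, Fam221a, Tfpi, Pdzrn3, 4930523C07Rik, 1500011B03Rik, Sulf2, Gdpd1, Nek6, Kdelr3, Vegfc, Pkp3, Gemin8, Pcbp3, Syt12, Mapt, Eml2 and Ctps2. They include Vegfc, a growth factor for lymphatic vessels, which averaged 0.247 CPM in 168FARN WT, 2.34 in its KO, 19.8 in 67NR WT and 2.62 in its KO. Sulf2, an enzyme that removes sulfate from heparan sulfate, averaged 14.2, 35.2, 12.2 and 4.85 CPM in the same order, so it is the 1 gene of the 26 that was not lower in 168FARN WT. Crtap, which acts in collagen prolyl hydroxylation, averaged 2.75, 13.4, 40.4 and 8.51 CPM in that order.

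The other 22 opposite genes fell in 168FARN and rose in 67NR, and 20 of them started higher in 168FARN WT than in 67NR WT. Their median level was 8.26 CPM in 168FARN WT, 1.38 in its KO, 0.94 in 67NR WT and 8.66 in its KO. They came from 13 chromosomes. In all 22 the WT and KO libraries did not overlap in either line, against 46.88% of all genes in 67NR and 10.5% in 168FARN. Here too the calls came from the same libraries.

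Mrgprx2 (chr7:55733989-55754640), a Mas-related G protein-coupled receptor, had the smallest p of all opposite genes. It was at 32.7, 30.8 and 24.5 CPM in 168FARN WT and at 0.43, 0.534 and 0.246 CPM in its KO, and at 0.685, 0.867 and 0.184 CPM in 67NR WT and 39.5, 44.8 and 32.3 CPM in its KO. Each line ended near the level at which the other began. The effects were -6.17 ± 0.47 in 168FARN and 6.03 ± 0.45 in 67NR, with a difference of 12.20 ± 0.65 (edgeR adjusted p = 2.5e-08). Gm364 (chrX:54662331-54741944) was at 80.7, 78.7 and 121 CPM in 168FARN WT and at 0.43, 0.401 and 0.437 CPM in its KO, and at 0.26, 0.353 and 0.276 CPM in 67NR WT and 1.07, 1.44 and 1.78 CPM in its KO. Its fall in 168FARN was almost complete and its rise in 67NR stayed under 2 CPM, which gave a difference of 10.03 ± 0.53 (edgeR adjusted p = 2.5e-08). The transcript 1700007G11Rik (chr5:98758373-99230929) was at 29.4, 22.9 and 22.9 CPM in 168FARN WT and at 7.35, 5.77 and 4.35 CPM in its KO, and at 0.851, 0.955 and 1.01 CPM in 67NR WT and 12.4, 17.9 and 22.2 CPM in its KO. The difference was 6.32 ± 0.42 (edgeR adjusted p = 1.2e-07).

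Lncenc1 (chr13:98204925-98266960), a long noncoding RNA, was at 165, 176 and 264 CPM in 168FARN WT and at 89.5, 99.5 and 119 CPM in its KO, and at 14.5, 14.8 and 10.6 CPM in 67NR WT and 193, 204 and 219 CPM in its KO. Its fall in 168FARN was modest, at -0.98 ± 0.23 (edgeR adjusted p = 0.084), beside a rise of 3.94 ± 0.26 in 67NR, and the difference was 4.92 ± 0.34. Il1rl1 (chr1:40486415-40522260), the receptor for interleukin-33, was at 6.53, 6.2 and 20.8 CPM in 168FARN WT and at 1.09, 1.17 and 2.82 CPM in its KO, and at 4.57, 5.92 and 1.98 CPM in 67NR WT and 545, 605 and 377 CPM in its KO. The WT libraries of both lines lay at low levels not far apart, and the KO libraries lay far apart. The difference was 9.65 ± 0.86 (edgeR adjusted p = 1.9e-06).

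Its ligand Il33 rose in 67NR alone. It was at 4.86, 3.12 and 11 CPM in 168FARN WT and at 2.52, 2.8 and 13.4 CPM in its KO, and at 2.53, 3.16 and 1.88 CPM in 67NR WT and 44.8, 50.3 and 40.7 CPM in its KO. The 168FARN groups overlapped and the 67NR groups did not (difference 4.18 ± 0.87, edgeR adjusted p = 0.0044).

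The other 17 genes of this group, beside Mrgprx2, Gm364, 1700007G11Rik, Lncenc1 and Il1rl1, were Cacna2d1, Lepr, Iqcg, Pex5l, Tph2, Renbp, Grip1, Pde5a, Elovl4, Mill2, Gstp2, Ptar1, Tcp11x2, Brinp3, Zfp820, Serpinb2 and Fam188b. Lepr, the leptin receptor, averaged 12.2 CPM in 168FARN WT, 2.75 in its KO, 0.846 in 67NR WT and 23.7 in its KO. Tph2, a hydroxylase of serotonin synthesis, averaged 25, 12.4, 1.7 and 20.9 CPM in the same order, and Cacna2d1, a calcium channel subunit, averaged 1.67, 0.105, 0.59 and 9.97 CPM. Serpinb2, an inhibitor of plasminogen activators, was at 0.205, 0.122 and 0.45 CPM in 168FARN WT and at 0 in all 3 of its KO libraries, and at 0.615, 0.823 and 2.48 CPM in 67NR WT and 5.18, 5.76 and 11.7 CPM in its KO. Its fall in 168FARN thus began under 1 CPM, and no fold is given for it there.

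**Figure D2:**
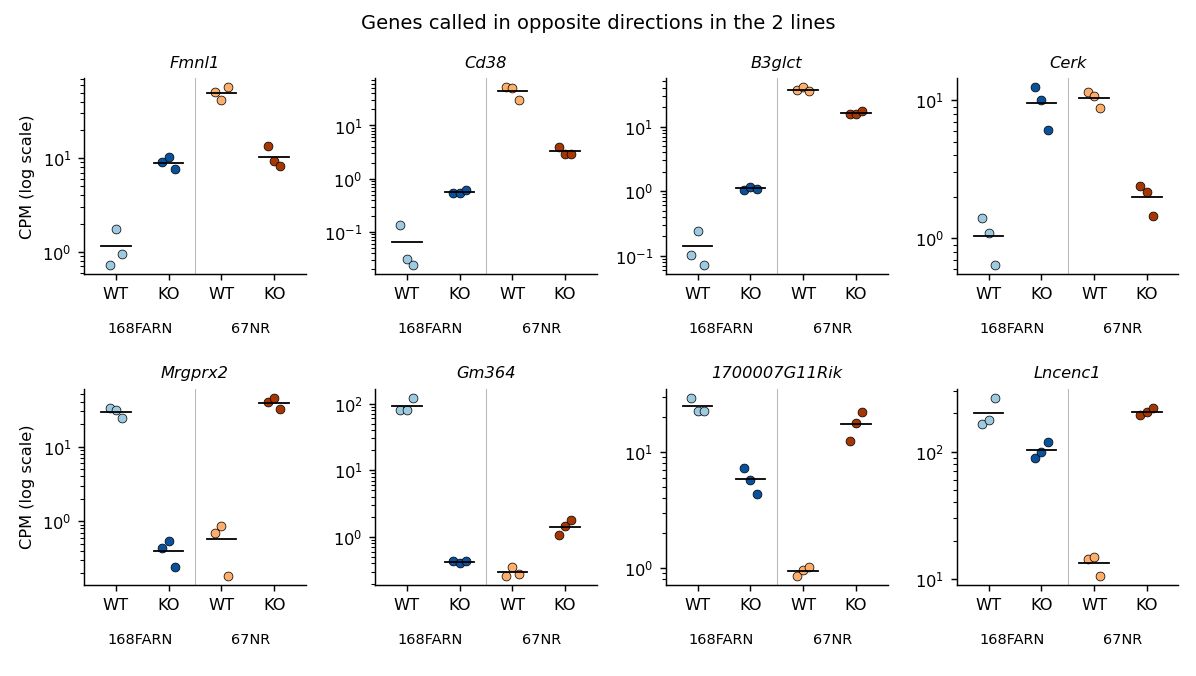
CPM in each library (points, log scale) and the group mean (bar) for 8 opposite genes, the 4 in each direction with the smallest p for the difference among those whose groups do not overlap. The upper row fell in 67NR and rose in 168FARN and the lower row did the reverse, with no overlap of WT and KO in either line.

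In the plot of the opposite genes, the KO libraries of both lines lie close together for Fmnl1, whereas for the other 7 genes the KO levels of the lines stay apart. The upstream sequence of Mrgprx2 is shown as an example from the group that rose in 67NR, because 6 of the 19 genes of that group with a RefSeq promoter (31.6%) held the AP-1 letters TGANTCA on either strand in the 250 bases before their start, against 7.82% of all 27025 promoters, and 0 of the 21 genes of the group that fell did. The sequence is from RefSeq (GRCm38.p6, chr7:48499271-48499520, minus strand), and capitals mark the AP-1 letters. Other short motifs were counted too, and the letters CACCTG were also in 31.6% of the same 19 genes. The AP-1 letters were in 8.86% of the genes that rose in 67NR alone and in 6.13% of all genes tested with a promoter. They were in 22.6% of the interferon-stimulated genes, a list that fell in 67NR. A match is a description of the letters and not of binding, and the shares carry no test.
Mrgprx2: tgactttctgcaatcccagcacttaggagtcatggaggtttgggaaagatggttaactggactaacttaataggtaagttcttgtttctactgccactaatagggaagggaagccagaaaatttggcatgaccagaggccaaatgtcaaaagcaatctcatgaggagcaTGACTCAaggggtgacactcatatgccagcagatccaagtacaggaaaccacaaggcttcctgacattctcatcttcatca

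Among the genes with a called difference, levels in the KO lines lay closer together than in the WT lines. The median absolute gap between lines, in log2(CPM + 1), was 1.267 in WT and 0.547 in KO over the 2226 genes, with a smaller gap in KO for 1634 and a larger gap for 592. Over all genes tested it went from 0.485 to 0.37, smaller for 8499 and larger for 5383. The WT libraries enter both the gap and the difference, so a called difference alone favours a smaller gap, and these counts carry no test.

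The genes that changed in 67NR alone were near the level of 168FARN more often in KO than in WT, and in both less often than all genes. Levels within 2-fold were counted on CPM + 1, so a gene under 1 CPM in both lines always counts as within 2-fold. Of the 1068 that rose, 42.2% were within 2-fold of 168FARN in WT and 71.4% in KO. Of the 898 that fell, 32.5% were within 2-fold in WT and 71.5% in KO. Of the 26 genes that fell in 67NR and rose in 168FARN, 2 were within 2-fold in WT and 19 in KO, while of the 22 with the reverse pattern 7 were within 2-fold in WT and 8 in KO. Over all genes that were higher in 67NR KO the shares were 78.7% and 86.4%, and over all that were lower they were 73.1% and 84.9%. The same WT and KO values enter the classes and these shares, which carry no test.

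Genes at a high level in 1 line and near 0 in the other were followed in the same way. There were 38 genes at 20 CPM or more in 168FARN WT and under 1 CPM in 67NR WT, and in 67NR KO their median was 2.81 CPM, with 22 at 1 CPM or more and 4 at 20 CPM or more. The reverse 248 genes had a median of 0.0299 CPM in 168FARN KO, with 16 at 1 CPM or more and 0 at 20 CPM or more. Most genes of the second kind thus stayed near 0 in the 168FARN KO libraries. Admixture of one line in the other was not tested beyond these values.

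A called response in 168FARN alone was rare. By the rule for naming genes, the 4 that rose were Prps2, Rgcc, Syt7 and Pdha1 and the 4 that fell were Sec14l2, Slc12a1, Fam198b and Ano4. Sec14l2 (chr11:3997042-4023418), a lipid-binding protein that promotes squalene conversion, was at 8.86, 10.1 and 5.18 CPM in 168FARN WT and at 0.232, 0.32 and 0.109 CPM in its KO, and at 9.83, 10.2 and 10.3 CPM in 67NR WT and 8.19, 6.92 and 8.26 CPM in its KO. The lines were alike in WT and the gene was nearly silent in the 168FARN KO libraries only, with a difference of 4.79 ± 0.49 (edgeR adjusted p = 7.7e-06). Prps2 (chrX:163784254-163820681), an enzyme of nucleotide synthesis, was at 37.5, 40.2 and 38.4 CPM in 168FARN WT and at 81.8, 96.4 and 84.1 CPM in its KO, and at 84.6, 94.2 and 96.7 CPM in 67NR WT and 56.1, 59.9 and 71.8 CPM in its KO. The KO libraries did not overlap WT in either line, and the 67NR effect of -0.55 ± 0.15 passed the p threshold but not that on fold. The difference was -1.73 ± 0.21 (edgeR adjusted p = 4.3e-05).

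Pdha1 (chrX:156560141-156576345), a subunit of pyruvate dehydrogenase, was at 133, 132 and 103 CPM in 168FARN WT and at 220, 250 and 183 CPM in its KO, and at 172, 194 and 176 CPM in 67NR WT and 131, 138 and 136 CPM in its KO. As with Prps2, the lines moved apart in sign and the 67NR effect of -0.42 ± 0.17 stayed under the fold threshold (difference -1.25 ± 0.24, edgeR adjusted p = 0.0028). Rgcc, Syt7, Slc12a1, Fam198b and Ano4 had differences of -6.86, -3.19, 3.6, 6.53 and 5.57. They averaged under 3 CPM in 168FARN WT, and the first 4 of them had a called opposite effect in 67NR with the replicate block. The 16 genes also held Itga6, an integrin of the epithelial basement membrane, at 19.7, 19 and 21.8 CPM in 168FARN WT and 39, 44.3 and 38.2 CPM in its KO, against 107, 111 and 85.1 CPM in 67NR WT and 124, 124 and 129 CPM in its KO. The remaining members were Tslp, Spns2, Fbxo17, Serpinb7, Cx3cr1, Tbx4 and Adamts9.

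Several of these genes are neighbours. Genes with a mean of at least 5 CPM in each line were taken in windows of 40 along each chromosome, with at least 20 in the last, which gave 231 windows and 9148 genes. The last window of the X chromosome, chrX:148733043-166443668 with 38 genes, had a median effect of 0.39 in 168FARN and -0.55 in 67NR, and 35 of the 38 genes were lower in 67NR KO against 9 in 168FARN KO. It holds Prps2, Pdha1 and the opposite genes Ctps2, Gemin8 and Arhgap6, and the 67NR effects of Prps2 and Pdha1 lay near its median. A second window with opposite medians over 0.3 was the last of chromosome 16, chr16:65815878-92826311, at 0.35 in 168FARN and -0.56 in 67NR, where 37 of 40 genes were lower in 67NR KO and 2 in 168FARN KO. With the replicate block the medians were 0.4 and -0.55 for the first and 0.34 and -0.5 for the second.

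Shifts of whole windows were common in 67NR and occurred in both directions. Absolute medians over 0.3 were found in 69 windows of 67NR, between -0.71 and 0.54, and in 8 windows of 168FARN, between -0.51 and 0.44. Over all genes tested, the median effect in 67NR was 0.397 on chromosome 7 and -0.365 on chromosome 8, beside 0.03 and 0.165 in 168FARN. The first 2 windows of chromosome 10 were lower in both lines, with medians of -0.66 and -0.71 in 67NR and -0.51 and -0.45 in 168FARN. These windows were singled out after their values were seen, and what made neighbours move together was not tested.

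**Figure D3:**
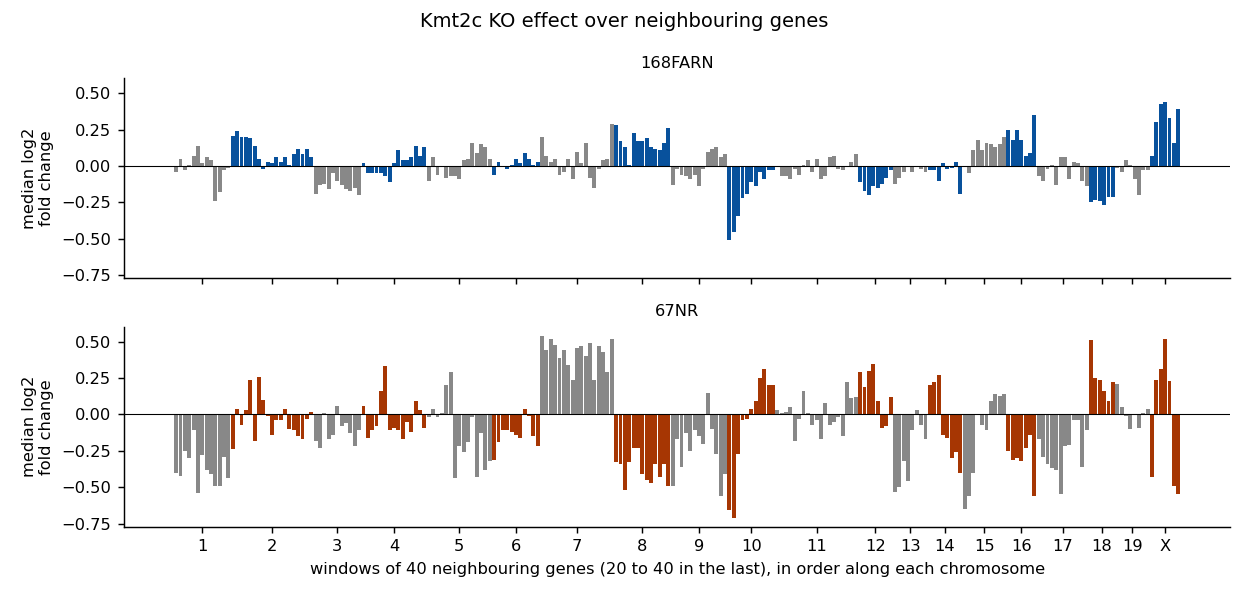
Median log2 fold change of Kmt2c KO over WT in 231 windows of up to 40 neighbouring genes, in order along each chromosome, in 168FARN (top) and 67NR (bottom). Shades alternate between chromosomes. Chromosome 7 is raised and chromosomes 1 and 8 are lowered in 67NR, the start of chromosome 10 is lowered in both lines, and the end of X is raised in 168FARN and lowered in 67NR.

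The 67NR response without a 168FARN counterpart held genes far beyond those window shifts. Epb41l3, which links membrane proteins to the cytoskeleton, was at 235, 223 and 182 CPM in 168FARN WT and at 190, 199 and 172 CPM in its KO, and at 7.21, 9.55 and 7.65 CPM in 67NR WT and 183, 179 and 220 CPM in its KO. The 67NR KO libraries reached the range of 168FARN, whose own groups overlapped. The effect was 4.57 ± 0.18 in 67NR and -0.19 ± 0.16 in 168FARN, and the difference 4.77 ± 0.24 (edgeR adjusted p = 2.4e-08). Slc41a2, B3galt1 and Slc6a17, a magnesium transporter, a galactosyltransferase and an amino acid transporter, rose in 67NR by 3.76, 4.20 and 5.37 with 168FARN effects of -0.44, -0.01 and -0.05. Among the genes that fell, Sorbs2, an adaptor of actin and adhesion sites, was at 4.31, 4.92 and 6.1 CPM in 168FARN WT and at 5.56, 7.32 and 7.82 CPM in its KO, and at 127, 149 and 124 CPM in 67NR WT and 5.86, 6.39 and 5.66 CPM in its KO. Here too the 67NR KO libraries lay at the level of 168FARN (difference -4.91 ± 0.29, edgeR adjusted p = 5.3e-08). Tacc1, Dtx3l and Nuak2, a centrosomal coiled-coil protein, a ubiquitin ligase of the interferon response and a kinase of the YAP pathway, fell in 67NR by 3.50, 3.57 and 3.43 on the log2 scale, and their 168FARN effects were 0.19, -0.35 and 0.16.

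**Figure D4:**
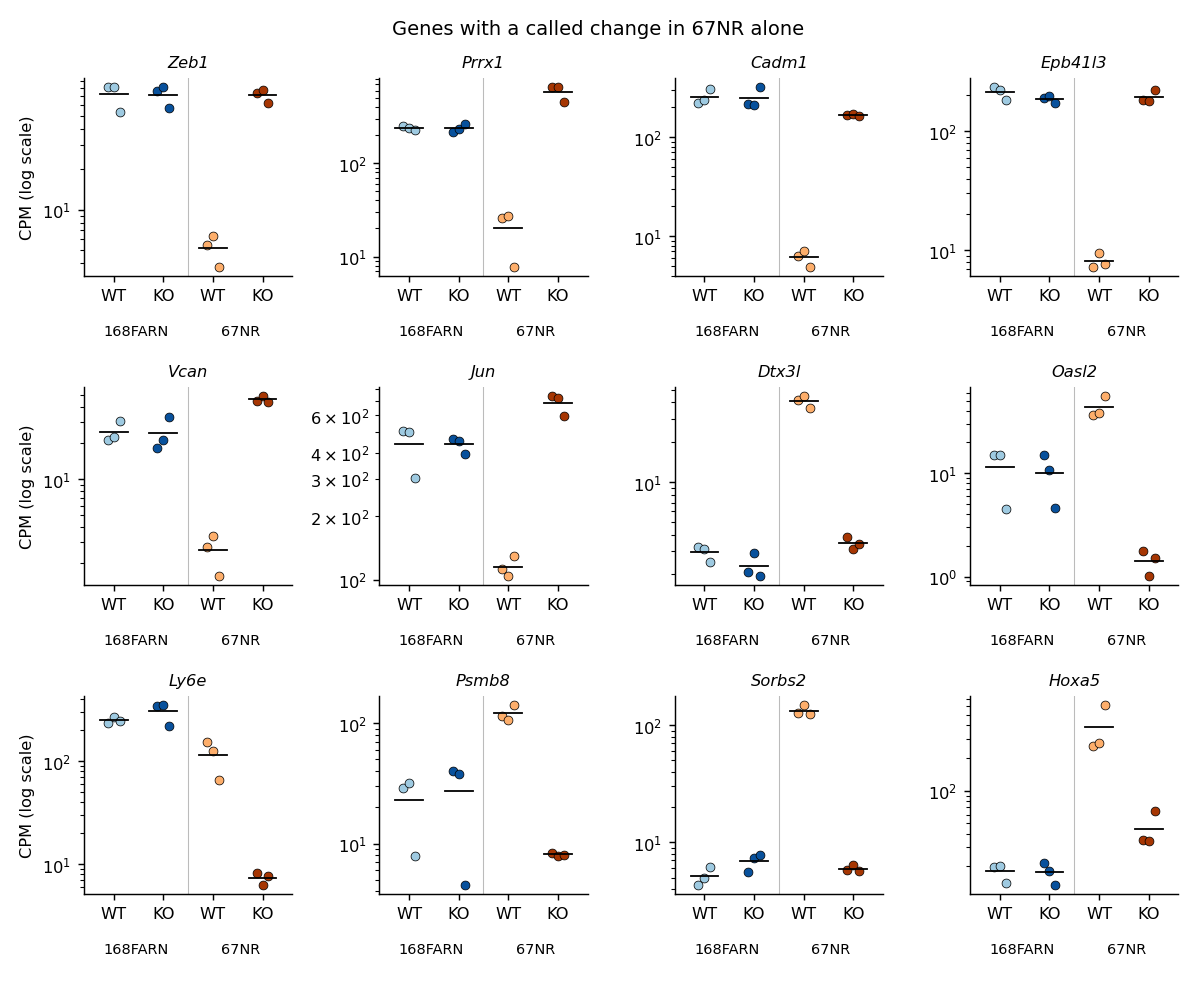
CPM in each library (points, log scale) and the group mean (bar) for 12 genes called in 67NR alone. Zeb1, Prrx1, Cadm1, Epb41l3, Vcan and Jun rose in 67NR KO and Dtx3l, Oasl2, Ly6e, Psmb8, Sorbs2 and Hoxa5 fell, while the 168FARN groups overlap in all 12.

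The plot of genes called in 67NR alone shows 168FARN libraries that did not separate by genotype. To see which pathways share this pattern, 35 lists of genes were described by how many members were called, beside 8.49% higher and 7.55% lower differences among all genes. The median difference over all genes was -0.07, and the medians of the effects were -0.09 in 67NR and 0.00 in 168FARN.

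**Figure D5:**
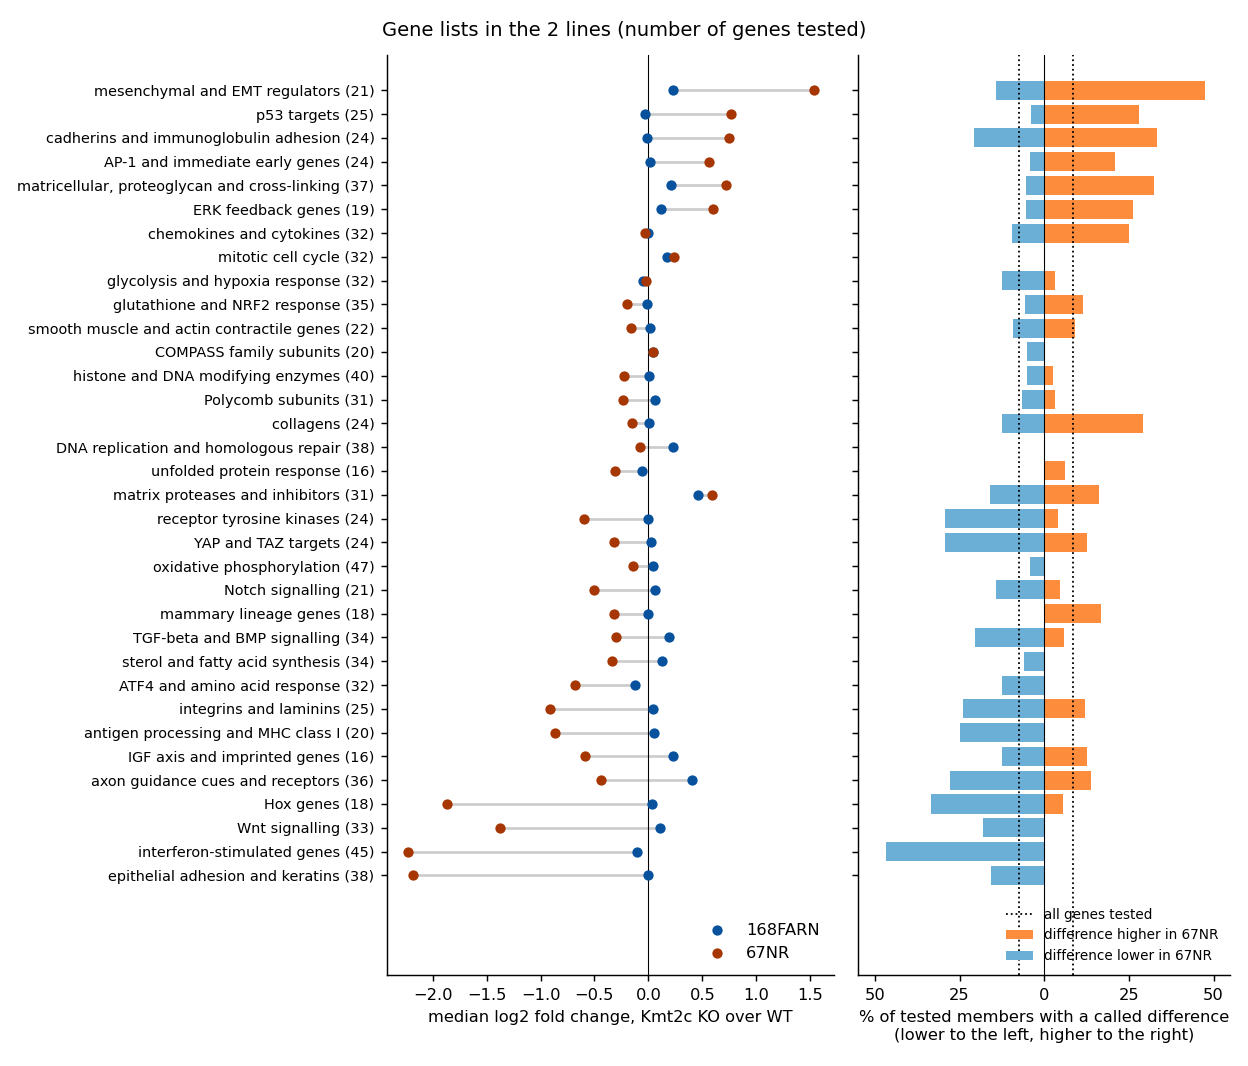
Left, median log2 fold change of the tested members of each list (number in brackets) in 168FARN and 67NR; right, percent of members with a called difference, lower to the left and higher to the right, with dotted lines at 7.55% and 8.49% for all genes. Of the lists drawn, which leave out the markers of other cell types (median 2.07 in 67NR), the epithelial, interferon-stimulated, Wnt and Hox lists lie lowest in 67NR and the mesenchymal and p53 lists highest, while the medians in 168FARN stay between -0.13 and 0.46.

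Genes of the mesenchymal state moved in 67NR alone. Of 21 tested members, 10 had a higher and 3 a lower difference, and with the block 12 and 5. In 67NR 12 rose and 6 fell, and in 168FARN none was called (edgeR, adjusted over all genes), where with the block 2 rose. The medians were 1.53 in 67NR and 0.23 in 168FARN. Zeb1, a repressor of E-cadherin, was at 81.5, 81.8 and 53.4 CPM in 168FARN WT and at 76.3, 81.2 and 57.4 CPM in its KO, and at 5.4, 6.38 and 3.72 CPM in 67NR WT and 73.2, 77.1 and 62.5 CPM in its KO. All libraries but those of 67NR WT shared one range, and the difference was 3.79 ± 0.33 (edgeR adjusted p = 1.6e-06). Vim, the intermediate filament vimentin, was at 6473, 5834 and 6398 CPM in 168FARN WT and at 8429, 8004 and 8009 CPM in its KO, and at 261, 289 and 1295 CPM in 67NR WT and 2573, 2602 and 4257 CPM in its KO. It rose in 67NR and still lay under 168FARN (difference 1.97 ± 0.69, edgeR adjusted p = 0.081). Prrx1, Snai2 and Twist2, which encode mesenchymal transcription factors, had differences of 4.86 ± 0.50, 4.36 ± 0.54 and 3.68 ± 0.40, and Twist2 also rose in 168FARN with the block. Fn1, the matrix protein fibronectin, went the other way, with an effect of -2.06 ± 0.68 in 67NR and 0.27 ± 0.66 in 168FARN, and its difference was called with the block only (edgeR adjusted p = 1.4e-06 there and 0.14 without).

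Epithelial genes fell in 67NR and were mostly absent from 168FARN, so the comparison between lines could not be made for most of them. Of 38 tested members, 35 fell in 67NR and 0 rose, with a median of -2.18, while in 168FARN 1 rose and 1 fell. Only 5 of the 38 reached 1 CPM in 168FARN WT, against all 38 in 67NR WT, and 12 had a group at 0 in all its libraries. A called lower difference was found for 6 members, and for 14 with the block. Cdh1, E-cadherin, was at 0, 0 and 0.0237 CPM in 168FARN WT and at 0, 0.0267 and 0.0273 CPM in its KO, and at 502, 516 and 458 CPM in 67NR WT and 74.4, 72.3 and 53.1 CPM in its KO. In 67NR it fell by 2.88 on the log2 scale, 168FARN had no level from which a fall could be measured, and the difference was not called without the block (edgeR adjusted p = 0.14) and was called with it (0.07). Epcam, an epithelial adhesion molecule, was at 0 in all 6 libraries of 168FARN and at 519, 575 and 669 CPM in 67NR WT and 134, 143 and 173 CPM in its KO. Both thus stayed well above the level of 168FARN in the 67NR KO libraries.

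The epithelial members with a measurable level in both lines differed among themselves. Pkp3, a plakophilin of desmosomes, was at 13, 15.1 and 12.9 CPM in 168FARN WT and at 28.8, 34.3 and 18.6 CPM in its KO, and at 40.3, 33.8 and 44.7 CPM in 67NR WT and 23.1, 17.9 and 17.5 CPM in its KO. It was the 1 member with opposite effects (difference -2.01 ± 0.31, edgeR adjusted p = 0.00032). Krt8, a keratin, was at 127, 127 and 397 CPM in 168FARN WT and at 99.6, 108 and 293 CPM in its KO, and at 290, 263 and 777 CPM in 67NR WT and 101, 77.6 and 218 CPM in its KO. Replicate 3 was the highest in every group, and the difference was called with the block only (edgeR adjusted p = 0.49 without it and 1.7e-05 with it).

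The E-box CACCTG, which Zeb and Snail proteins bind, was counted on both strands in the 250 bases before the start of genes. It was found in 14 of the 23 epithelial genes with a RefSeq promoter (60.9%), in 25.9% of the genes that fell in 67NR alone, in 18% of those that rose in 67NR alone and in 19.4% of all promoters. The list was written from general knowledge with earlier results known, and the shares carry no test. Lsr and Elf3 are shown as 2 members with a called lower difference in 67NR, from RefSeq (GRCm38.p6, chr7:30973470-30973719 and chr1:135258473-135258722, both minus strand), with the E-box or its reverse complement in capitals.
Lsr: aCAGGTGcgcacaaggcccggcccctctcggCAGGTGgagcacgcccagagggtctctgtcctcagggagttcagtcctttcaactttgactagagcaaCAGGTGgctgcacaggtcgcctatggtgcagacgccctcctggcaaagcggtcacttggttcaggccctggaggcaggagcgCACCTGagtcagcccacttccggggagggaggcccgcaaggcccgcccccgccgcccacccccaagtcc
Elf3: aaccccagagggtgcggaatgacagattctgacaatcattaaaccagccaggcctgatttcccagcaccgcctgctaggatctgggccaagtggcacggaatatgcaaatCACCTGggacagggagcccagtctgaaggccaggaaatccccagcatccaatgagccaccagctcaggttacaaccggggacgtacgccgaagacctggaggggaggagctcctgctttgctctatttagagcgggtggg
Lsr, a receptor of tricellular junctions, was at 66.1, 49.1 and 119 CPM in 67NR WT and 15.6, 13.1 and 19.1 CPM in its KO, and at or under 0.232 CPM in every 168FARN library (difference -4.51 ± 1.23, edgeR adjusted p = 0.026). Elf3, an epithelial transcription factor named here for its promoter, was at 47.3, 39.6 and 62.5 CPM in 67NR WT and 10.7, 7.23 and 8.22 CPM in its KO, and at most 1.03 CPM in 168FARN.

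Matrix and adhesion genes split within their lists. Of 37 matricellular, proteoglycan and cross-linking genes, 12 had a higher and 2 a lower difference, and with the block 15 and 6. Vcan, the proteoglycan versican, was at 21.4, 22.7 and 30.5 CPM in 168FARN WT and at 18.3, 21.3 and 33.2 CPM in its KO, and at 2.74, 3.38 and 1.56 CPM in 67NR WT and 45.3, 49.5 and 44.2 CPM in its KO. The 67NR KO libraries lay above all others (difference 4.21 ± 0.47, edgeR adjusted p = 1.9e-05). Loxl1, a cross-linking enzyme of elastin and collagen, and Gpc4, a glypican, had differences of 3.82 ± 0.48 and 4.98 ± 0.39. Of 24 collagens, 7 had a higher and 3 a lower difference, and with the block 7 and 5. Col5a2 was at 28.2, 33.3 and 23.4 CPM in 168FARN WT and at 11.9, 11.6 and 8.12 CPM in its KO, and at 0.851, 1.04 and 2.14 CPM in 67NR WT and 5.68, 4.17 and 15.3 CPM in its KO. The groups did not overlap in either line and pointed in opposite directions, and the 168FARN fall was called with the block only (edgeR adjusted p = 0.39 without it and 5.2e-05 with it). Col6a3 rose (difference 3.16 ± 0.56) and Col7a1, the anchoring fibril collagen, fell (difference -1.93 ± 0.39) in 67NR with 168FARN effects of -0.01 and -0.24.

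Of 31 matrix proteases and inhibitors, 5 had a higher and 5 a lower difference, and with the block 11 and 8. Mmp15, a membrane-bound metalloproteinase, fell in 67NR from 35.7, 29.9 and 19.3 to 0.496, 0.611 and 0.376 CPM and was under 1 CPM in all 168FARN libraries, whereas Adamts7, a secreted metalloproteinase, rose in 67NR from 5.16, 4.66 and 4.66 to 119, 97.1 and 59 CPM. Their differences were -6.39 ± 1.17 and 3.44 ± 0.52 (edgeR adjusted p = 0.0017 and 0.00031). Integrins and laminins, with 25 tested, had 3 higher and 6 lower differences, and with the block 5 and 9. Itgb2, the beta subunit of leukocyte integrins, fell in 67NR from 65.2, 63.1 and 110 to 13.6, 12.5 and 20.4 CPM, and Itgb7 rose from 3.31, 2.38 and 2.69 to 47.7, 38.8 and 20.3 CPM, while their 168FARN groups overlapped. Of 24 cadherins and immunoglobulin adhesion molecules 8 had a higher and 5 a lower difference, and with the block 12 and 7. The list was led by Cadm1, a homophilic adhesion molecule, at 221, 236 and 304 CPM in 168FARN WT, 214, 209 and 321 CPM in its KO, 6.3, 7.11 and 4.85 CPM in 67NR WT and 166, 172 and 164 CPM in its KO. Cadm1 had a difference of 4.81 ± 0.30 (edgeR adjusted p = 8.2e-08).

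Axon guidance cues and receptors direct growing axons and also act between other cells. Of 36 tested, 5 had a higher and 10 a lower difference, with 0 opposite genes (edgeR without the block), and with the block 8 and 17, of which 6 were opposite, against 258 of the 13882 genes tested with the block. These 6 were Sema3f, Sema6a, Nrp1, Efna4, Efnb2 and Ntn1. Efnb2, the ligand ephrin-B2, was at 58.2, 58.3 and 113 CPM in 168FARN WT and at 89.4, 89.5 and 186 CPM in its KO, and at 226, 231 and 197 CPM in 67NR WT and 44.7, 41.4 and 34.7 CPM in its KO. Within each replicate number the 168FARN KO library was the higher one (edgeR adjusted p = 0.78 without the block and 0.00099 with it), and the difference was -3.10 ± 0.48. Plxna2, a semaphorin receptor, rose in 67NR from 1, 1.32 and 0.574 to 14.9, 14.2 and 15 CPM (difference 3.20 ± 0.40), and Sema4b, a membrane semaphorin, had a difference of 1.5 ± 0.18.

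Interferon-stimulated genes fell in 67NR alone. Of the 45 listed, all were tested, 31 fell and 0 rose in 67NR, and in 168FARN none was called by edgeR without the block and 3 fell with it. The difference was lower for 21 and higher for 0, and with the block lower for 34 and higher for 2, against 7.55% lower over all genes. The medians were -2.23 in 67NR and -0.11 in 168FARN. Ly6e was at 235, 270 and 248 CPM in 168FARN WT and at 348, 354 and 223 CPM in its KO, and at 153, 125 and 65.7 CPM in 67NR WT and 8.25, 6.27 and 7.63 CPM in its KO. Oasl2, of the family that senses double-stranded RNA, was at 15.1, 14.9 and 4.5 CPM in 168FARN WT and at 14.9, 10.8 and 4.59 CPM in its KO, and at 36.5, 38.1 and 56.1 CPM in 67NR WT and 1.77, 1.01 and 1.5 CPM in its KO. For both genes the 67NR KO libraries lay below every library of 168FARN, with differences of -4.25 ± 0.41 for Ly6e and -4.74 ± 0.67 for Oasl2 (edgeR adjusted p = 4e-06 and 0.00018). Dtx3l and Ifi44 had differences of -3.23 ± 0.28 and -5.25 ± 0.75.

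Irf7, an interferon regulatory factor, fell in 67NR from 7.63, 5.92 and 8.82 to 0.744, 0.978 and 1.36 CPM, with a difference called with the block only (edgeR adjusted p = 0.13 without it and 2e-05 with it). In the antigen presentation list, with 20 tested, 5 differences were lower and 0 higher, and with the block 11 and 0. Psmb8, an immunoproteasome subunit, was at 29.1, 31.8 and 7.83 CPM in 168FARN WT and at 39.8, 37.7 and 4.51 CPM in its KO, and at 114, 106 and 142 CPM in 67NR WT and 8.38, 7.95 and 8.1 CPM in its KO, a difference of -4.15 ± 1.06 (edgeR adjusted p = 0.018). Tap1, a peptide transporter, was not called without the block (difference -0.71 ± 1.08).

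The core of the interferon response element, GAAANNGAA on either strand, was found in 15 of the 31 listed genes with a RefSeq promoter (48.4%), against 8.18% of all promoters. The listed genes Dtx3l, Oasl2, Ifi44 and Parp12 held 0 cores, so large differences also occurred without one. The shares carry no test. Ifit1 and Isg15 are shown as members that hold 3 cores each, from RefSeq (GRCm38.p6, chr19:34640639-34640888, plus strand, and chr4:156200819-156201068, minus strand). Capitals mark the cores, which overlap in part.
Ifit1: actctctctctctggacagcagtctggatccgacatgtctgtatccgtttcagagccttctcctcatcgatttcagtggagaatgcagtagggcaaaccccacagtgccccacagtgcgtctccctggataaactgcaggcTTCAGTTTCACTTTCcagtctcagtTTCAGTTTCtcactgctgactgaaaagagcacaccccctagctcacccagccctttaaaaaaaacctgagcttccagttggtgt
Isg15: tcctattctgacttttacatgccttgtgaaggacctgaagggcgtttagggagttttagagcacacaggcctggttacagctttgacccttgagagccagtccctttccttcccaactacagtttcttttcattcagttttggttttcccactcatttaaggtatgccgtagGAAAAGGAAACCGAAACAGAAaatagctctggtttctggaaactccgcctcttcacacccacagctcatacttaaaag
Ifit1, which binds viral RNA, fell in 67NR from 13.1, 15.5 and 26.4 to 0.809, 0.795 and 1.22 CPM, and in 168FARN its values were 12.8, 13.6 and 15.2 CPM in WT and 8.31, 8.22 and 24.4 CPM in KO. Isg15, a ubiquitin-like protein, fell in 67NR from 20.2, 16.1 and 45.3 to 3.69, 3.32 and 4.34 CPM, with 26.5, 26 and 17.8 CPM in 168FARN WT and 25.3, 27.3 and 20.9 CPM in its KO. Both were named for their promoters, and their 168FARN groups overlapped.

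Inflammatory ligands moved in both directions in 67NR, where 8 rose and 7 fell. Of 32 chemokines and cytokines, 8 had a higher and 3 a lower difference, and with the block 10 and 6, while the list median of the 67NR effect was -0.03. For 6 members a group was at 0 in all its libraries, and with those at a bound of 3 counts over the group the median difference was 0.21 in place of 0.40. Ccl2, a monocyte chemokine, was at 3.56, 3.48 and 3.6 CPM in 168FARN WT and at 5.03, 5.66 and 3.55 CPM in its KO, and at 3.69, 4 and 1.4 CPM in 67NR WT and 226, 304 and 140 CPM in its KO. Both WT lines and the 168FARN KO shared one low level (difference 5.78 ± 0.51, edgeR adjusted p = 1.8e-06). Its neighbour Ccl7 had a difference of 5.61 ± 1.09. Cxcl1, a neutrophil chemokine, was at 67.8, 52.7 and 49.2 CPM in 168FARN WT and at 59.7, 49.5 and 18.6 CPM in its KO, and at 360, 438 and 505 CPM in 67NR WT and 3415, 4094 and 2524 CPM in its KO. Here the lines started apart and moved further apart, with a difference of 3.35 ± 0.59 (edgeR adjusted p = 0.0012).

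Immediate early, ERK feedback and p53 target genes had more higher than lower differences. Of 24 AP-1 and immediate early genes, 5 had a higher and 1 a lower difference, and with the block 12 and 3. Jun, a subunit of AP-1, was at 508, 501 and 304 CPM in 168FARN WT and at 463, 455 and 393 CPM in its KO, and at 112, 104 and 129 CPM in 67NR WT and 741, 721 and 597 CPM in its KO. Fosl1, its partner, was at 387, 354 and 337 CPM in 168FARN WT and at 312, 298 and 402 CPM in its KO, and at 41.8, 36.2 and 88 CPM in 67NR WT and 372, 314 and 351 CPM in its KO. The 67NR KO libraries lay in or above the range of 168FARN, with differences of 2.58 ± 0.32 and 2.74 ± 0.38 (edgeR adjusted p = 4.5e-05 and 0.00014). Of 19 ERK feedback genes, 5 were higher and 1 lower, and with the block 10 and 2. Dusp6, a phosphatase of ERK, and Spred3 had differences of 1.26 ± 0.25 and 1.89 ± 0.25, and Spry1, another inhibitor of the pathway, had one of -3.07 ± 0.61, falling in 67NR from 129, 122 and 87.1 to 12.5, 11.1 and 10.5 CPM.

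Of 25 p53 targets, 7 had a higher and 1 a lower difference, and with the block 17 and 2. In 67NR 11 rose and 3 fell, and in 168FARN none was called by edgeR without the block and 2 fell with it. Cdkn1a, the inhibitor of cyclin-dependent kinases p21, was at 287, 325 and 159 CPM in 168FARN WT and at 291, 317 and 145 CPM in its KO, and at 43.1, 35.8 and 11.7 CPM in 67NR WT and 257, 231 and 148 CPM in its KO. The 67NR KO libraries came close to 168FARN (difference 2.84 ± 0.65, edgeR adjusted p = 0.0084). Ccng1 and Eda2r had differences of 1.97 ± 0.32 and 4.22 ± 0.68.

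Signalling and patterning lists had more lower than higher differences. Of 33 Wnt genes 0 were higher and 6 lower, with the block 2 and 12. Wnt10a, a Wnt ligand, fell in 67NR from 32.8, 26.4 and 21.6 to 3.64, 3.33 and 2.21 CPM and was at 2.33, 2.57 and 2.74 CPM in 168FARN WT and 2.91, 2.54 and 2.65 CPM in its KO. The 67NR KO libraries met the level of 168FARN (difference -3.22 ± 0.39, edgeR adjusted p = 4.2e-05). Of 34 TGF-beta and BMP genes 2 were higher and 7 lower, with the block 5 and 13, with Tgfbr3, a co-receptor, higher (difference 2.76 ± 0.45) and Bmp1 and Tgfbr1 lower (differences -2.12 ± 0.30 and -1.37 ± 0.34). Of 24 receptor tyrosine kinases 1 was higher and 7 lower, with the block 3 and 9. The higher one was Fgfr1, a fibroblast growth factor receptor, at 126, 129 and 70.2 CPM in 168FARN WT, 229, 217 and 82 CPM in its KO, 14.3, 13.1 and 8.91 CPM in 67NR WT and 157, 137 and 129 CPM in its KO. Ephb6 fell in 67NR from 26.9, 22.7 and 9.76 to 0.692, 0.688 and 0.423 CPM (difference -4.99 ± 0.90).

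Of 24 YAP and TAZ targets, 3 had a higher and 7 a lower difference, with the block 6 and 7. Nuak2 and Tgfb2 were lower (differences -3.58 ± 0.32 and -4.32 ± 1.11) and Foxf2, a mesenchymal forkhead factor, higher (4.81 ± 0.44). Nt5e, which makes adenosine from AMP, fell in 67NR from 315, 368 and 117 to 47.1, 52.4 and 26.1 CPM, and in 168FARN its KO values of 8.34, 10.5 and 5.44 CPM lay above its WT values of 5.03, 3.64 and 1.14 CPM, a rise called with the block only (edgeR adjusted p = 0.68 without it and 0.00073 with it). The TEAD letters CATTCC were found in 8 of the 16 listed genes with a promoter (50%) and in 14.4% of all promoters. Of 18 Hox genes 1 was higher and 6 lower, with the block the same numbers. Hoxb4 rose in 67NR from 0.414, 0.514 and 0.919 to 12.6, 12.9 and 10.9 CPM, against 13.1, 11.4 and 5.49 CPM in 168FARN WT, and Hoxa5 fell from 256, 275 and 620 to 34.7, 34.4 and 64.9 CPM, against 19.7, 20 and 14.1 CPM. Both thus moved toward 168FARN from opposite sides, with differences of 4.68 ± 0.76 and -3.08 ± 0.61 (edgeR adjusted p = 0.00059 and 0.003). Of 21 Notch genes 1 was higher and 3 lower, with the block 1 and 4. Notch4 rose in 67NR from 1.56, 1.15 and 3.93 to 15.3, 14.4 and 14.9 CPM (difference 2.05 ± 0.52).

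Chromatin regulators held fewer called differences than all genes, with and without the block. Without it, 5% of COMPASS subunits, 9.68% of Polycomb subunits and 7.5% of histone and DNA modifying enzymes were called. Among all genes 8.49% were higher and 7.55% lower. With the block the shares were 20%, 32.3% and 30% in the same order, under the 34.6% of all genes. Of 20 COMPASS subunits 0 were higher and 1 lower, with the block 2 and 2, and the lower one was Rbbp5 (difference -0.65 ± 0.22, edgeR adjusted p = 0.069). Kmt2d, the paralogue of Kmt2c, had a difference of 0.19 ± 0.44 (edgeR adjusted p = 0.89). Of 31 Polycomb subunits 1 was higher and 2 lower, with the block 4 and 6, and Pcgf6 fell in 67NR from 49.1, 56.5 and 57 to 13.1, 14.2 and 6.81 CPM. Of 40 histone and DNA modifying enzymes 1 was higher and 2 lower, with the block 3 and 9. The higher one was Hdac9, a deacetylase, at 8.28, 5.71 and 3.36 CPM in 168FARN WT, 3.38, 2.46 and 1.89 CPM in its KO, 0.0945, 0.118 and 0 CPM in 67NR WT and 9.82, 11 and 14.6 CPM in its KO. Its difference of 8.37 ± 0.81 (edgeR adjusted p = 4.4e-06) was called, and with the block it was an opposite gene.

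Without the block, some metabolic lists held fewer called differences than all genes, of which 8.49% were higher and 7.55% lower. The shares called were 4.26% for oxidative phosphorylation, 5.88% for sterol and fatty acid genes and 6.25% for the unfolded protein response. They were 12.5% for ATF4 and amino acid genes, 15.6% for glycolysis and hypoxia and 17.1% for glutathione and NRF2, the last 2 near that of all genes. Of 34 sterol and fatty acid genes 0 were higher and 2 lower, with the block 1 and 13. Acaca, which makes malonyl-CoA for fatty acid synthesis, fell in 67NR from 69.6, 67.4 and 64.6 to 43.9, 35.6 and 41.3 CPM (difference -0.91 ± 0.21, edgeR adjusted p = 0.01). Of 32 glycolysis and hypoxia genes 1 was higher and 4 lower, with the block 10 and 7. Hk2, hexokinase, fell in 67NR (difference -1.12 ± 0.23) and Adm, a hypoxia-induced peptide, rose from 3.25, 3.03 and 3.67 to 17.4, 18.1 and 48.2 CPM. Of 47 oxidative phosphorylation genes 0 were higher and 2 lower, with the block 1 and 10, of 32 ATF4 and amino acid genes 0 and 4, with the block 2 and 12, of 16 unfolded protein response genes 1 and 0, with the block 1 and 4, and of 35 glutathione and NRF2 genes 4 and 2, with the block 8 and 9. Gstt1, a glutathione transferase, rose in 67NR from 4.15, 4.5 and 1.77 to 166, 171 and 81.9 CPM, and in 168FARN replicate 3 lay far below the others, at 1.47 and 1.26 CPM in WT and KO.

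The calls for cell cycle genes depended on how the replicates were handled. Of 32 mitotic genes edgeR called 0 differences without the block, 0 had an unadjusted p under 0.05, and DESeq2 and limma voom also called 0 without the block, while with the block 9 were called, all higher, and with replicates 1 and 2 alone 27 were called. Calls over all genes rose too. With the block 28.1% of the mitotic list was called, under the 34.6% of all genes, and replicates 1 and 2 alone gave 5303 calls over all genes. Mki67, a marker of proliferating cells, was at 265, 297 and 1115 CPM in 168FARN WT and at 341, 401 and 1414 CPM in its KO, and at 44.3, 48.9 and 544 CPM in 67NR WT and 425, 369 and 788 CPM in its KO. Replicate 3 was the highest in every group, and within each replicate number KO was above WT in both lines. The difference was 0.95 ± 1.33 without the block (edgeR adjusted p = 0.77) and 1.77 with it (0.037). Of 38 DNA replication and repair genes 0 were called without the block by edgeR, DESeq2 or limma voom, 0 had an unadjusted p under 0.05, and with the block 4 were higher and 6 lower. That is 26.3% of the list, again under the 34.6% of all genes.

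Of 18 mammary lineage genes 3 had a higher and 0 a lower difference, with the block 3 and 2. Tbx3, a T-box factor of mammary development, had the smallest p among genes that changed in both lines in the same direction by unequal amounts. It was at 20.8, 21.5 and 22 CPM in 168FARN WT and at 45.1, 47.8 and 39.5 CPM in its KO, and at 2.3, 2.37 and 1.77 CPM in 67NR WT and 136, 128 and 81.8 CPM in its KO. It rose in both lines, by 1.04 ± 0.19 and 5.74 ± 0.24, with a difference of 4.70 ± 0.29 (edgeR adjusted p = 6.7e-08). Pla2g5, a secreted phospholipase, rose by 1.29 and 3.83, Xlr3c by 1.36 and 4.68, and Zfp534 by 1.57 and 5.18 in 168FARN and 67NR. The 12 genes of this class that rose were the 4 named and Sod3, Sirpa, Sdc3, Slco4a1, Sema7a, Clec14a, Ksr2 and Csgalnact1, and the 8 that fell included Plpp6, Zfp422, Gca, Flrt3, Dmd, Ubash3b and Epha4. Slco4a1 rose more in 168FARN, by 2.47 against 0.71 in 67NR, and Ksr2 was at 0 in all libraries of 168FARN WT. The 8 that fell were all lower in 168FARN WT than in 67NR WT, and 4 of them were under 1 CPM in 168FARN.

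Changes shared by both lines without a called difference included Mmp3, stromelysin 1, which was at 6.64, 6.97 and 4.76 CPM in 168FARN WT and at 38.8, 40.7 and 34.3 CPM in its KO, and at 24.6, 25.6 and 14.2 CPM in 67NR WT and 121, 129 and 51 CPM in its KO. The KO libraries were above WT in both lines and the difference was -0.41 ± 0.44 (edgeR adjusted p = 0.67). Nhsl1, an actin regulator, fell in both lines, by 1.03 and 1.43 on the log2 scale, with a difference of -0.41 ± 0.22. Sapcd1 rose in both, and with the block its difference of 1.2 was called (edgeR adjusted p = 0.0054). Vangl2, a planar polarity protein, fell in 67NR from 19.5, 18.4 and 24.1 to 2.06, 1.68 and 1.71 CPM and in 168FARN from 0.171, 0.244 and 0.118 CPM to 0 in all 3 KO libraries, so its effect in 168FARN began near 0. Among the other 36 genes were P2rx7, Dll1, Cdh5 and Gas2l1, which rose, and Pkp2, Dnmt3b, Igsf3 and Ablim1, which fell. Gas2l1, Igsf3 and Rbm47 had differences of -0.03, 0.05 and 0.05, the closest to equal effects among the 40, and were picked after their values were seen.

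Of 16 IGF axis and imprinted genes 2 were higher and 2 lower, with the block 3 and 7. H19, an imprinted noncoding RNA, was at 14.9, 11.5 and 10.2 CPM in 67NR WT and at 0, 0.0306 and 0 CPM in its KO, and at 0 in all 168FARN libraries but one, at 0.0801 CPM. Igfbp7, which binds insulin-like growth factors, fell in 67NR from 566, 515 and 385 to 73.6, 70.4 and 93.2 CPM, with a difference of -2.56 ± 0.83 (edgeR adjusted p = 0.06). Among 22 contractile genes 2 were higher and 2 lower, with the block 5 and 2, where Des, desmin, rose in 67NR from 2.9, 1.78 and 1.56 to 32.9, 25.2 and 30.7 CPM.

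Markers of other cell types were low and moved with the 67NR response in part. Over 22 such genes, the summed level was 32.5 to 110 CPM in 168FARN WT, 32.0 to 115 CPM in its KO, 36.0 to 56.8 CPM in 67NR WT and 73.1 to 115 CPM in 67NR KO, and Cd68 was the highest of them in every group. Of the 8 tested, 4 had a higher difference, namely Pax6, Lyz2, Plin1 and Cd14, and 0 a lower one, with the block the same numbers. The markers Cldn5, Emcn, Adgre1, Hbb-b1, Hba-a1 and Ins2 were at 0 in all 12 libraries, and the group means of the immune genes Ptprc and Cd3e stayed at or under 0.0275 CPM. The B cell gene Cd79a averaged 0.0404 CPM in 67NR WT and 0.457 CPM in its KO, and the macrophage gene Cd68 averaged 27.2 and 49.8 CPM. Their part in the result was not tested beyond these values.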

How the data were processed

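RNA was measured by poly(A)-selected RNA-seq in 18 libraries of 168FARN and 67NR cells, of which the 12 WT and Kmt2c KO libraries, 3 per group, were compared here. The authors deposited 1 table of raw counts per gene for each line, made with the VIPER pipeline and the aligner STAR, and the submitters' processing notes name the mouse genome build mm9; aligner version and strand setting are not given in the sources used here, so reads of overlapping antisense genes cannot be told apart. The tables were joined on gene symbol, which gave 24333 genes, after 27 symbols that a spreadsheet had turned into dates were left out. Of these symbols, 20531 matched mm9 names and 1537 older names.

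Genes were filtered with filterByExpr by group and scaled by TMM, and 13882 were tested in a joint fit of the 18 libraries with edgeR 4.0.16 (robust quasi-likelihood, R 4.3.3) and Benjamini-Hochberg adjustment. The contrast was the Kmt2c KO effect in 67NR minus that in 168FARN, and the standard error is the log2 value over the square root of F. The procedure was tested on simulated counts. DESeq2 1.42.0, limma 3.58.1 voom, a replicate block, the 12 libraries alone, other filters and thresholds, replicates 1 and 2 alone and leaving out each library were alternatives. The fits that join the block to voom or to the 12 libraries alone were added after seeing the data. Per the study's reporting summary, replicates are harvests of one cell line a passage apart, and its methods take each harvest as a batch, so p-values measure the spread between harvests and not between independent edits. No 2 libraries of a group agreed within sampling noise.

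Whether a replicate number marks 1 harvest is not stated. It was taken to pair WT with Kmt2c KO within a line, because the deviations from group means of same-numbered libraries correlated at 0.518, 0.507 and 0.785 in 168FARN and at 0.38, 0.352 and 0.513 in 67NR. Replicate 3 carried most of this, since replicates 1 and 2 also correlated across numbers, at 0.531 and 0.484 in 168FARN. Libraries held 28282313 to 43276979 counts in 168FARN WT, 32204199 to 39152076 in its KO, 44808817 to 78955350 in 67NR WT and 40815409 to 67671573 in its KO.

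Genes named were the 4 with the smallest p for the difference in each class and direction, where the KO libraries did not overlap WT in each line with a called effect, up to 4 with the smallest p in each list, and a set of marker genes chosen by name. Others named in the text were chosen after their values were seen. The comparison, the members of all lists and the thresholds were chosen with earlier results of these data known, and the lists carry no test. Promoters were read from RefSeq (GRCm38.p6), and the guides of the study's sequence table were matched to mm9; no coordinates were converted between builds. Values of a few single genes are not reported here, while counts over lists include every tested member.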

Additional observations from a re-analysis of the deposited data

Results flagged for a closer look

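The 2 lines differed under the same contrast by a test of the difference itself (edgeR quasi-likelihood, adjusted p under 0.1 and absolute log2 value over 0.6) for 2226 genes, of which 48 had called effects in opposite directions, 1966 a called effect in 67NR alone and 16 a called effect in 168FARN alone. Among the opposite genes, the difference (67NR minus 168FARN, log2) was 12.20 for Mrgprx2, 10.03 for Gm364, 6.32 for 1700007G11Rik and 4.92 for Lncenc1. It was -5.23 for Fmnl1, -6.92 for Cd38, -4.19 for B3glct and -5.55 for Cerk. Among the genes called in 168FARN alone, the difference was -1.73 for Prps2, -6.86 for Rgcc, -3.19 for Syt7 and -1.25 for Pdha1, and 4.79 for Sec14l2, 3.6 for Slc12a1, 6.53 for Fam198b and 5.57 for Ano4. With the replicate block, Rgcc, Syt7, Slc12a1 and Fam198b had called effects in opposite directions. Groups of 3 libraries are too small for a check of single outlying libraries.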

How the results depend on the processing

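No gene named by the rule changed direction under any alternative that was run, and every alternative could be run. The replicate block raised the interaction calls, the genes with a called difference, from 2226 to 4805, the opposite direction calls from 48 to 258, the 67NR alone calls from 1966 to 3509 and the 168FARN alone calls from 16 to 137. In the same order, DESeq2 with the block gave 4946, 282, 3551 and 168, limma voom with the block 5283, 278, 3921 and 174, the 12 libraries alone with the block 4494, 172, 3435 and 103, and replicates 1 and 2 alone 5303, 422, 3300 and 427. Without the block, opposite direction calls were 102 with DESeq2, 25 with limma voom, 28 in the 12 libraries alone and 31 at an adjusted p under 0.05 with no fold threshold, and 168FARN alone calls were 38 with DESeq2 and 10 at that threshold. The other alternatives kept each count within 1.5 times. The cause of these moves was not tested, beyond the removal of the replicate 3 offset by the block's own construction.

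Leaving out 1 library gave 1702 to 2611 interaction calls, 18 to 53 opposite direction calls, 1528 to 2114 67NR alone calls and 3 to 34 168FARN alone calls. Opposite direction calls moved by over 1.5 times without any one 168FARN library but KO replicate 3. They were 25, 22 and 28 without WT replicate 1, 2 or 3 and 23 and 18 without KO replicate 1 or 2. In the same way the 168FARN alone calls were 6, 3 and 9 without WT replicate 1, 2 or 3 and 8, 3 and 34 without KO replicate 1, 2 or 3.

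The difference was called for 145 of the 182 genes named by the rule. With the block 26 more were called and 0 were lost. Without the block, leaving out 1 library lost between 4 calls (without 168FARN KO replicate 3) and 17 (without 168FARN KO replicate 1). The 12 libraries alone lost 5, and an adjusted p under 0.05 with no fold threshold lost 12. Of genes reported above as called, Rbbp5 lost its call in 14 of 24 alternatives, Vim and Cd14 in 11 of 24, Igfbp7 in 9 of 24 and Plin1 in 9 of 20. The list counts with the block stand beside each list. Genes near 0 in 1 line, as in the epithelial list, give differences whose size is set by few counts.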
